A study of Mus musculus with 12 samples.

Results

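Tumors treated with doxorubicin and an anti-PD-1 antibody were compared with tumors treated with the anti-PD-1 antibody alone, in RNA-seq of whole tumors. The comparison used 6 of the 12 tumors of the series, 3 of each group, chosen by the treatment in their labels. The other 6 tumors were 3 given an IgG1 control antibody and 3 given doxorubicin with IgG1. They were used to test whether the doxorubicin difference was another one without PD-1 blockade, and entered an alternative fit of the comparison. All tumors arose in female C57BL/6 mice with a transgene for PyMT, the middle T oncoprotein of polyoma virus. Its MMTV promoter is active in mammary epithelium, so that mammary carcinomas arise spontaneously in animals with an intact immune system. Each library was made from 1 snap-frozen tumor, and the age of the mice at collection was not given in the sources used here. Doxorubicin was given at 5 mg/kg once weekly for 5 weeks from a tumor diameter of 1 cm, each time followed a day later by 10 mg/kg of anti-PD-1 (clone 4H2). Anti-PD-1 alone was started at a diameter of 0.6 cm with 20 mg/kg and continued with 10 mg/kg, and while the protocol gives it a shorter schedule, the labels give 5 weeks for every group. Doxorubicin, starting size, the dose that opens the antibody course and schedule therefore differ together between the groups and cannot be told apart.

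Doxorubicin is an anthracycline that intercalates into DNA, traps topoisomerase II on broken strands and generates oxygen radicals, and p53 target genes are a well known part of the response of cells to it. PD-1 is an inhibitory receptor of activated T cells and NK cells, and antibodies that block it release these cells from inhibition by PD-L1. Besides carcinoma cells, a mammary tumor holds fibroblasts, vessels, immune cells, myoepithelial cells and remains of the mammary fat pad, and RNA of all of them enters a whole-tumor library. The values are TPM, the share of a gene among all transcripts once its length is accounted for, and the values of 3 tumors are always given in the order of replicates 1, 2 and 3. Log2 differences are DOX/anti-PD-1 minus anti-PD-1, on the scale of log2(TPM + 1), which understates differences of genes with low levels. Read counts are not part of such values, which leaves their depth unknown, and a value listed at 0 may stand for a transcript that was missed.

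The labels of mammary carcinoma were checked against epithelial markers. Epcam, an adhesion molecule of epithelial cells, had 911, 712 and 757 TPM in the anti-PD-1 group and 734, 920.1 and 468 TPM in the DOX/anti-PD-1 group. Krt18, a keratin of luminal cells, had 648, 376 and 557 TPM and 749.6, 499 and 448 TPM. Both genes were abundant in every tumor, and the groups overlapped. Pdcd1, which encodes PD-1 itself, was listed at 0, 0.65 and 0 TPM and 0, 0.83 and 0 TPM, too low to be tested.

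The test covered 13736 genes with 1 TPM or more in 3 or more of the 6 tumors, of which 0 (0%) passed both limits with limma, an adjusted p under 0.1 and a log2 difference above 1 in either direction. The smallest adjusted p was 0.307. An unadjusted p under 0.05 was reached by 1185 genes, 865 of them higher and 320 lower in the DOX/anti-PD-1 group, and after scaling of the libraries by the median of ratios there were 1120, of which 537 were higher and 583 lower. Other fits called between 0 and 4 genes, among them 3 when limma was run without a mean-variance trend. Levels were higher in DOX/anti-PD-1 tumors for 8239 genes and lower for 5497, with a median log2 difference of 0.11 over all genes tested. Scaling moved this median to -0.011 and the share of higher genes from 60% to 48.9%. Values are on the deposited scale unless scaling is named, and each list of genes is read against the median of 0.11 of all genes.

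Groups that did not overlap are given as a description beside the test. All 3 DOX/anti-PD-1 tumors lay above all 3 anti-PD-1 tumors in 1518 genes (11.1%) and below them in 528 genes (3.84%). After scaling these counts were 994 (7.24%) and 1017 (7.40%), so the excess of higher genes depended on the scale. In what follows, a gene called separated is one whose groups did not overlap on the deposited scale, and counts of such genes in a list are to be read against 11.1% and 3.84%. Counts after scaling are added in parentheses where they differ for separated genes, or differ most for genes higher or lower. Scaled counts of separated genes are to be read against 7.24% above and 7.40% below. Log2 differences, mostly with standard errors, are given for 124 separated genes, chosen because they were separated, with adjusted p values between 0.307 and 0.689 from limma, so none of them passed. After scaling, 104 of the 124 were still separated, 0 changed direction, and the groups of Acacb, Adipoq, Cd86, Cnn1, Col3a1, Col4a1, Col4a2, Col7a1, Dlat, Gata3, Hp, Krt19, Krt7, Mmp14, Nlrc5, Pfkfb3, Plk2, Pou2af1, Vegfa and Vwf overlapped.

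The difference moved with the GC content of the transcripts. The tested genes were divided into 4 classes of like size by the GC content of the longest protein-coding transcript, known for 13719 of them (99.9%). In the class with the lowest GC content, 32.8% to 45.3%, the median log2 difference was -0.038, and it was 0.084, 0.18 and 0.24 in the following classes, the last one reaching from 54.9% to 76.5%. The share of genes with all DOX/anti-PD-1 tumors on top was 5.34% in the lowest class and 15.2% in the highest, while the share with all of them at the bottom was 6.79% and 1.92%. Each DOX/anti-PD-1 tumor showed this, with medians of 0.23, 0.34 and 0.21 relative to the anti-PD-1 mean in the highest class and of -0.10, 0.028 and -0.0046 in the lowest. In 4 classes of transcript length, from short to long, the medians were 0.055, 0.11, 0.13 and 0.12, but the tumors differed. From the shortest to the longest class the median relative to the anti-PD-1 mean went from 0.15 to -0.018 in DOX/anti-PD-1 replicate 1, from 0.19 to 0.22 in replicate 2 and from -0.066 to 0.18 in replicate 3. Histones, ribosomal proteins and respiratory chain genes, with median lengths of 536, 906 and 908 bases, are short. The part of GC content in the differences of single genes was not tested, and for some lists, among them all whose sign it turned, the median relative to genes of the same class is given. It is to be read against 0 and beside the median relative to all genes tested, from which 0.11 is taken away.

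**Figure D1:**
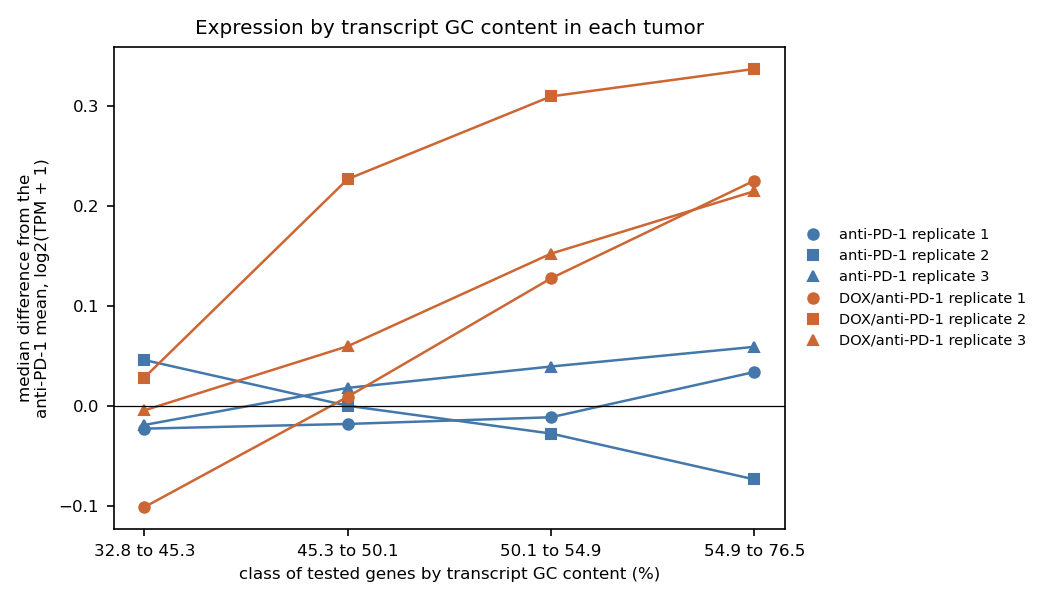
Median difference of each tumor from the mean of the 3 anti-PD-1 tumors (y axis, log2(TPM + 1)) in classes of the tested genes by transcript GC content (x axis, percent). Lines are tumors, blue for anti-PD-1 and orange for DOX/anti-PD-1, and in the highest class the orange points lie at 0.23, 0.34 and 0.21, above all blue points.

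DOX/anti-PD-1 replicate 3 had the lowest correlation with the other tumors. Across tested genes, which are not independent replicates, its mean correlation with the others was 0.873 and the means of the remaining tumors lay between 0.892 and 0.916. It was the highest of the 6 tumors in 3363 genes and the lowest in 2942, but DOX/anti-PD-1 replicate 2 was the highest in 3213 and anti-PD-1 replicate 1 the lowest in 2973. In addition, 501 tested genes were listed at 0 in it, beside 452 in DOX/anti-PD-1 replicate 1, 155 in replicate 2 and 423, 153 and 123 in the anti-PD-1 tumors. Many list medians near 0 moved by a large part of their size without 1 tumor or another. For these lists each tumor that turned the sign, or at least 1 that moved the median most, is named with the value without it.

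**Figure D2:**
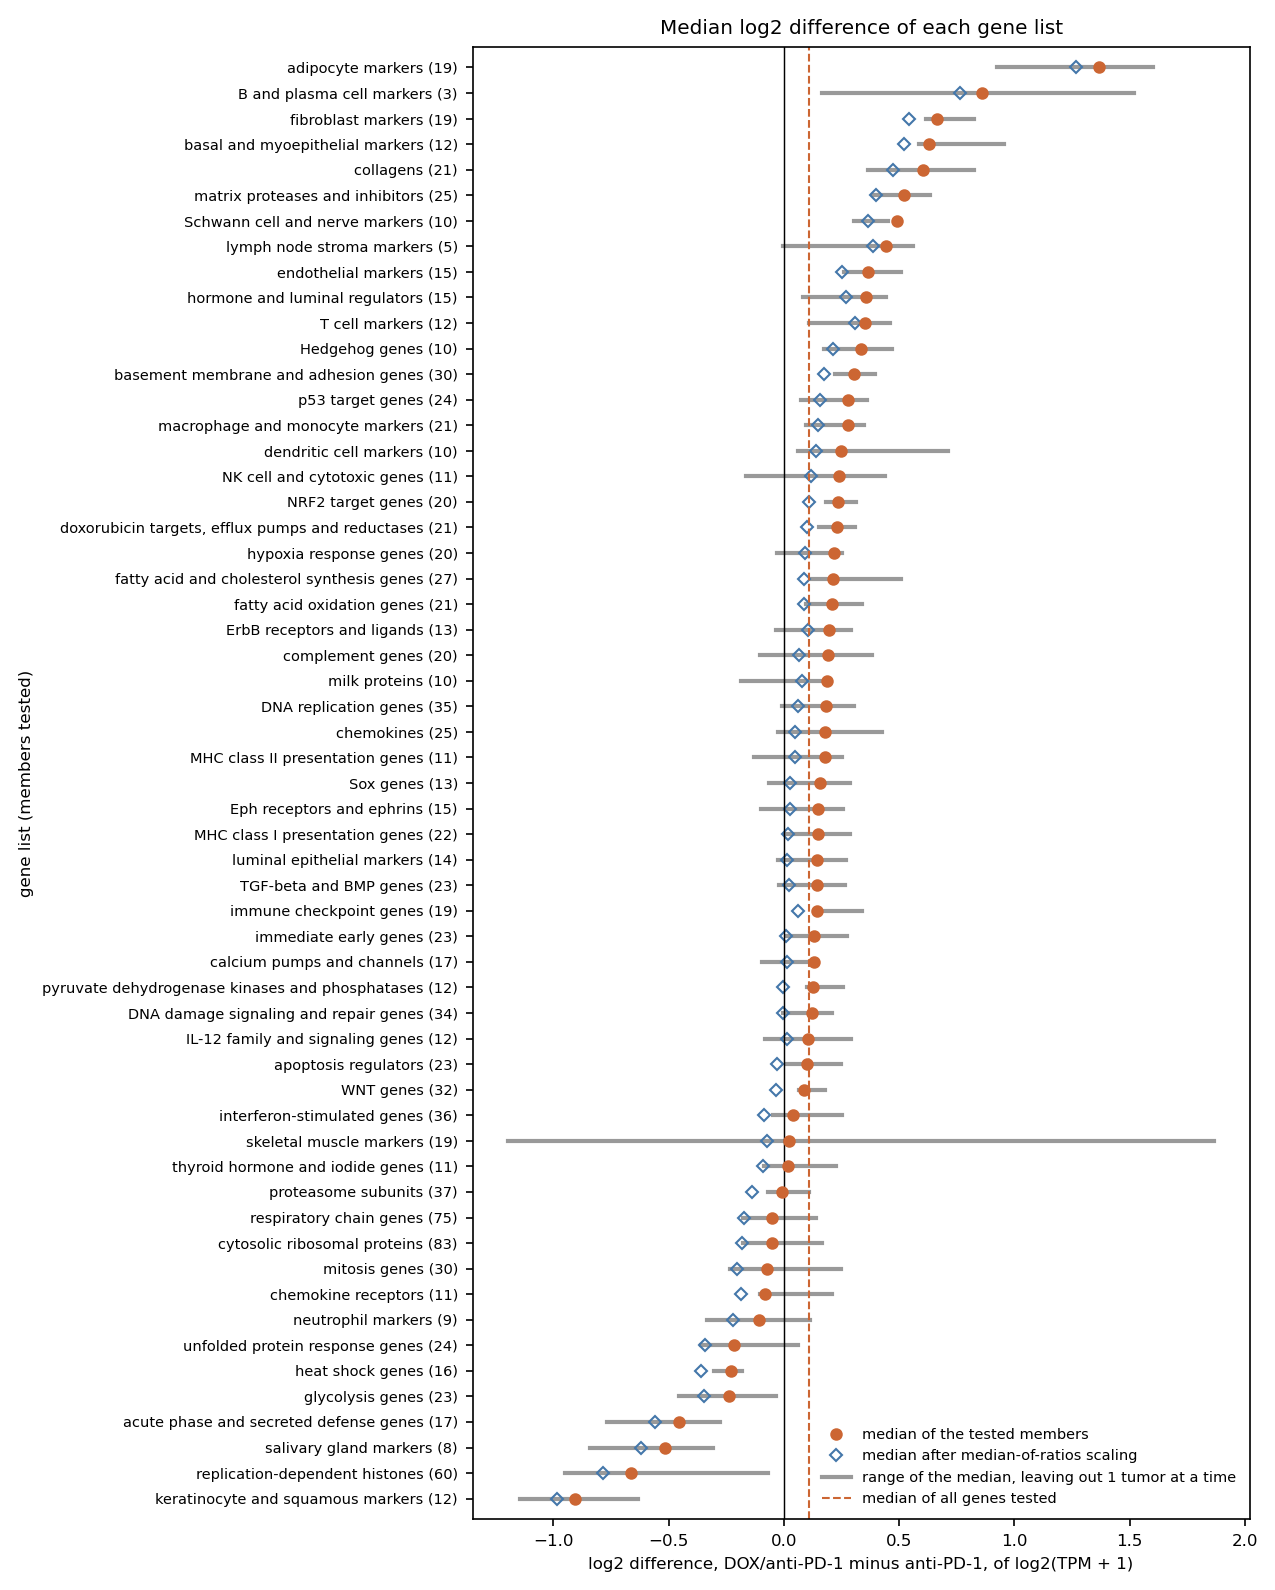
Median log2 difference (x axis, DOX/anti-PD-1 minus anti-PD-1 of log2(TPM + 1)) of the tested members of 57 gene lists (y axis, with the number tested), as orange points, with open diamonds for the median after scaling and gray lines for the range with 1 tumor left out at a time. The dashed line is the median of all genes tested, 0.11, and adipocyte markers at 1.37 and keratinocyte markers at -0.90 are the ends of the order. Scaling turned the sign of 7 lists, pyruvate dehydrogenase kinases, DNA damage genes, apoptosis regulators, WNT genes, interferon-stimulated genes, skeletal muscle markers and thyroid hormone genes.

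Of the separated genes with the largest differences, a part is described here. Defb1, an antimicrobial peptide of epithelia, had 0, 2.27 and 0.68 TPM in the anti-PD-1 group and 4.49, 43.4 and 26.5 TPM in the DOX/anti-PD-1 group, a log2 difference of 3.42 (standard error 0.77). Cpt1b, the muscle and fat form of the enzyme that brings fatty acids into mitochondria, had 1.67, 0 and 0.71 TPM and 16.4, 4.01 and 21.0 TPM, a difference of 2.91 (standard error 0.63). Glul (ENSMUSG00000026473, chromosome 1, 153899944 to 153909723, GRCm38), which encodes glutamine synthetase, had 41.4, 29.2 and 36.8 TPM and 112, 157 and 489 TPM (2.50, standard error 0.47). In all 3 genes the lowest DOX/anti-PD-1 tumor was above the highest anti-PD-1 tumor, by a small margin for Defb1 and by more for Glul, where replicate 3 was far above the other 2. Pck1, the key enzyme of gluconeogenesis and glyceroneogenesis, had 8.05, 3.03 and 4.11 TPM and 84.3, 9.84 and 37.0 TPM (2.52, standard error 0.67). Amtn, a secreted protein best known from enamel, had 3.31, 10.8 and 19.4 TPM and 49.2, 49.5 and 41.2 TPM (2.23, standard error 0.50). For Pck1 the DOX/anti-PD-1 tumors spread over a wide range, and for Amtn they were close together. Syt8 had a difference of 2.63, Gdpd3 one of 2.48 and Ffar2, a receptor of short-chain fatty acids, one of 2.22.

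Inppl1 (ENSMUSG00000032737, chromosome 7, 101822632 to 101838229), the lipid phosphatase SHIP2, was among the 5 genes with the smallest unadjusted p. It had 49.8, 42.8 and 43.1 TPM in the anti-PD-1 group and 109.8, 109 and 116 TPM in the DOX/anti-PD-1 group, a log2 difference of 1.29 (standard error 0.20, limma adjusted p = 0.307). The tumors of each group lay close together and all 3 of 3 were higher. The other 4 of these genes were listed at 0 in a whole group and so passed the minimum of 1 TPM in 3 tumors only through the other group, and no fold is given for them. Tmsb15b1 had 17.2, 9.11 and 7.33 TPM in the anti-PD-1 group, Agr2, a protein disulfide isomerase of secretory epithelia, 6.62, 5.94 and 18.3 TPM, and Ftl1-ps1, a ferritin copy whose reads could be shared with Ftl1, 7.18, 9.66 and 5.54 TPM, and all were listed at 0 in each tumor of the DOX/anti-PD-1 group. Mup16, of a family of near-identical urinary proteins and thus uncertain, was listed at 0 in anti-PD-1 tumors and had 4.86, 5.75 and 9.56 TPM in the DOX/anti-PD-1 group. Pin4 (11.3, 5.43 and 1.35 TPM) and Gm10282 (7.04, 2.72 and 4.74 TPM) were likewise at 0 in each of these tumors, and Gm20521 (7.85, 3.9 and 1.38 TPM) in all anti-PD-1 tumors. Among the genes with the largest lower values above 0, Ceacam10 had 11.3, 24.9 and 34.0 TPM and 1.84, 10.5 and 2.77 TPM, a difference of -2.17 (standard error 0.58).

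Fat cell genes had the highest median of the 57 lists with all 6 tumors, though not without DOX/anti-PD-1 replicate 1, where B cell markers were at 1.52, or without replicate 2, where skeletal muscle markers were at 1.87. Of 19 adipocyte markers tested, 18 were higher, 12 were separated above (11 scaled) and 0 below, with a median log2 difference of 1.37 (1.27 after scaling) beside 0.11 for all genes. In bulk tissue, fewer cells of a type and less RNA per cell cannot be told apart, here and for every list of cell type markers. The summed TPM of the 20 markers was 409, 314 and 445 in anti-PD-1 tumors and 1783, 657 and 763 in DOX/anti-PD-1 tumors. All DOX/anti-PD-1 sums were above all anti-PD-1 sums, and replicate 1 was more than the other 2 together. Left-out tumors moved the median between 0.92, without DOX/anti-PD-1 replicate 1, and 1.60, without DOX/anti-PD-1 replicate 2.

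Adipoq (ENSMUSG00000022878, chromosome 16, 23146536 to 23158028), which encodes the fat hormone adiponectin, had 14.2, 17.3 and 31.5 TPM in the anti-PD-1 group and 177, 57.9 and 32.1 TPM in the DOX/anti-PD-1 group (1.76, standard error 0.56, 1.08 without DOX/anti-PD-1 replicate 1). Car3, a carbonic anhydrase that is the most abundant gene of the list, had 114, 69.8 and 81.8 TPM and 454, 148 and 319.8 TPM (1.67, standard error 0.39). Cfd, the adipokine adipsin and also the complement factor D, had 97.8, 56.8 and 89.4 TPM and 321, 177 and 115 TPM (1.23, standard error 0.38). For Adipoq and Cfd replicate 1 was highest and replicate 3 nearest to the anti-PD-1 tumors, whereas Car3 was high in replicates 1 and 3. The lipid droplet protein Plin4 had 4.97, 2.87 and 4.39 TPM and 24.6, 7.19 and 12.0 TPM (1.49), and the fatty acid transporter Cd36 12.6, 18.4 and 18.0 TPM and 104, 30.4 and 32.5 TPM (1.49, 0.92 without DOX/anti-PD-1 replicate 1). Adrb3, the adrenergic receptor of fat cells, had 0.88, 2.56 and 0.6 TPM and 11.0, 7.1 and 9.1 TPM (2.17, standard error 0.45), and Slc36a2 had 0.67, 1.07 and 0.92 TPM and 10.2, 4.09 and 5.26 TPM (1.91, standard error 0.45). Both were low in every anti-PD-1 tumor and separated by a wide gap.

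Lipid metabolism outside the marker list was nearer to all genes. Of 21 fatty acid oxidation genes, 16 were higher, 3 separated above and 0 below (1 scaled), with a median of 0.21 (0.10 without anti-PD-1 replicate 2). Angptl4, a secreted inhibitor of lipoprotein lipase, had 4.39, 8.79 and 10.9 TPM and 25.1, 32.4 and 27.9 TPM (1.77, standard error 0.35). Of 27 genes of fatty acid and cholesterol synthesis, 19 were higher, 2 separated above (1 scaled) and 0 below. Their median of 0.21 was 0.51 without DOX/anti-PD-1 replicate 3 and 0.12 without DOX/anti-PD-1 replicate 2. Scd1, the stearoyl-CoA desaturase, had 698, 1184 and 707 TPM and 1905, 2809.7 and 1425 TPM (1.23, standard error 0.34), and Acacb, an acetyl-CoA carboxylase, had 6.03, 2.68 and 1.81 TPM and 12.0, 6.71 and 8.11 TPM (1.22, standard error 0.45). Both separated genes are used by fat cells, whose markers were higher in the same tumors, with sums of 1783, 657 and 763 TPM in the DOX/anti-PD-1 group. Acacb, like these sums, was highest in replicate 1 and lowest in replicate 2 of this group, whereas Scd1 was highest in replicate 2. The part of fat tissue in these values was not tested.

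Fibroblast markers were higher as a group. Like all lists here, theirs was chosen with earlier results of these data known. It holds Apod and Abca8a, which are also on the study's own list, chosen on these tumors. All 19 of 19 tested markers were higher, which held for 15 of them after scaling, 8 were separated above (7 scaled) and 0 below, and the median was 0.66 (0.54 after scaling). The summed TPM of the 20 markers was 1635, 1539 and 1697 in anti-PD-1 and 2421, 2397 and 2619.9 in DOX/anti-PD-1 tumors, so the sums of the groups were apart and even within each group. Dcn, the collagen-binding proteoglycan decorin, had 90.9, 98.2 and 93.7 TPM and 205, 175 and 201 TPM (1.03, standard error 0.20). Vim, the intermediate filament of mesenchymal cells, had 242, 300.3 and 358 TPM and 499.9, 482 and 587 TPM (0.81, standard error 0.24). Apod, an apolipoprotein of stromal cells, had 109, 63.3 and 89.3 TPM and 236, 141 and 383 TPM (1.45, standard error 0.36). The lowest DOX/anti-PD-1 tumor was well above the highest anti-PD-1 tumor for Dcn and Vim, and Apod varied most between the DOX/anti-PD-1 tumors. Lum, a proteoglycan of collagen fibrils, differed by 0.77 (standard error 0.22) and the transporter Abca8a, with 1.98, 4.41 and 11.0 TPM and 25.6, 23.7 and 27.3 TPM, by 2.20 (standard error 0.48). Postn, the most abundant marker, overlapped with 571, 436 and 341 TPM and 507, 603 and 322 TPM, and Tcf21, a transcription factor of fibroblasts, was listed at 0 in all 6 tumors. The part of fibroblast content in the matrix genes was not tested.

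Collagen genes were mostly higher. Of 21 collagens, 16 were higher, 8 separated above (3 scaled) and 0 below (1 scaled), and the median was 0.60, or 0.49 relative to all genes, 0.36 to the same GC class and 0.36 without anti-PD-1 replicate 3. Summed collagen TPM was 2323, 2182 and 1661 in anti-PD-1 and 2598, 2883 and 3079 in DOX/anti-PD-1 tumors, higher in all 3. Col15a1, a collagen next to basement membranes, had 24.0, 24.4 and 23.9 TPM and 118, 37.6 and 105 TPM (1.65, standard error 0.40). The anti-PD-1 tumors were nearly equal, and DOX/anti-PD-1 replicate 2 was far below the other 2 of its group. The chains of collagen IV, the network of basement membranes, were Col4a1 with 420.1, 314 and 294 TPM and 600.5, 454 and 583 TPM (0.68, standard error 0.24) and Col4a2 with 133, 115 and 97.4 TPM and 260.4, 142 and 256 TPM (0.88, standard error 0.28). Col7a1, of the anchoring fibrils under epithelia, had 19.8, 9.24 and 4.13 TPM and 32.3, 21.9 and 37.5 TPM (1.58), Col18a1, the source of endostatin, differed by 1.06 and Col5a3 by 1.34. Among the fibrillar collagens, Col3a1 had 290, 291 and 235 TPM and 302, 396 and 425 TPM (0.45, standard error 0.23). Col1a1 had 238, 234 and 132 TPM and 219.6, 488 and 525 TPM, and its groups overlapped because DOX/anti-PD-1 replicate 1 stayed within the anti-PD-1 range.

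Matrix-degrading enzymes and their inhibitors were mostly higher as well. Of 25 tested, 20 were higher, 8 separated above (6 scaled) and 2 below (3 scaled), with a median of 0.52. Plau, the urokinase plasminogen activator, had 8.29, 11.4 and 9.09 TPM and 22.9, 27.2 and 43.1 TPM (1.56, standard error 0.32). Mmp14, a membrane-bound metalloproteinase that activates Mmp2, had 126, 63.9 and 80.0 TPM and 128, 197 and 419 TPM (1.34, standard error 0.42, 0.87 without DOX/anti-PD-1 replicate 3), and Mmp2, a gelatinase, had 62.8, 46.1 and 59.5 TPM and 75.0, 90.7 and 151 TPM (0.85, standard error 0.29, 0.56 without DOX/anti-PD-1 replicate 3). Plau was separated by a gap, Mmp14 by little, since DOX/anti-PD-1 replicate 1 nearly met anti-PD-1 replicate 1. Timp1, an inhibitor of these enzymes, differed by 0.89. In the other direction Mmp11, the stromelysin of tumor stroma, had 6.17, 4.75 and 6.22 TPM and 3.24, 3.14 and 2.94 TPM (-0.70, standard error 0.36).

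Among 30 basement membrane and adhesion genes, 23 were higher, 8 separated above (7 scaled) and 1 below (3 scaled), with a median of 0.30. Matn2, a matrilin that bridges matrix networks, had 9.98, 17.6 and 17.4 TPM and 44.8, 33.9 and 47.5 TPM (1.45, standard error 0.30), and Nid1, which links laminin to collagen IV, had 21.5, 25.1 and 25.4 TPM and 46.9, 43.2 and 55.4 TPM (0.98, standard error 0.23). The laminin chains Lama2 and Lama3 differed by 1.07 and 1.21, and Megf6 by 1.47. Npnt, the nephronectin ligand of epithelial integrins, was lower, with 142, 218 and 193 TPM and 70.2, 122 and 42.1 TPM (-1.34, standard error 0.37).

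**Figure D3:**
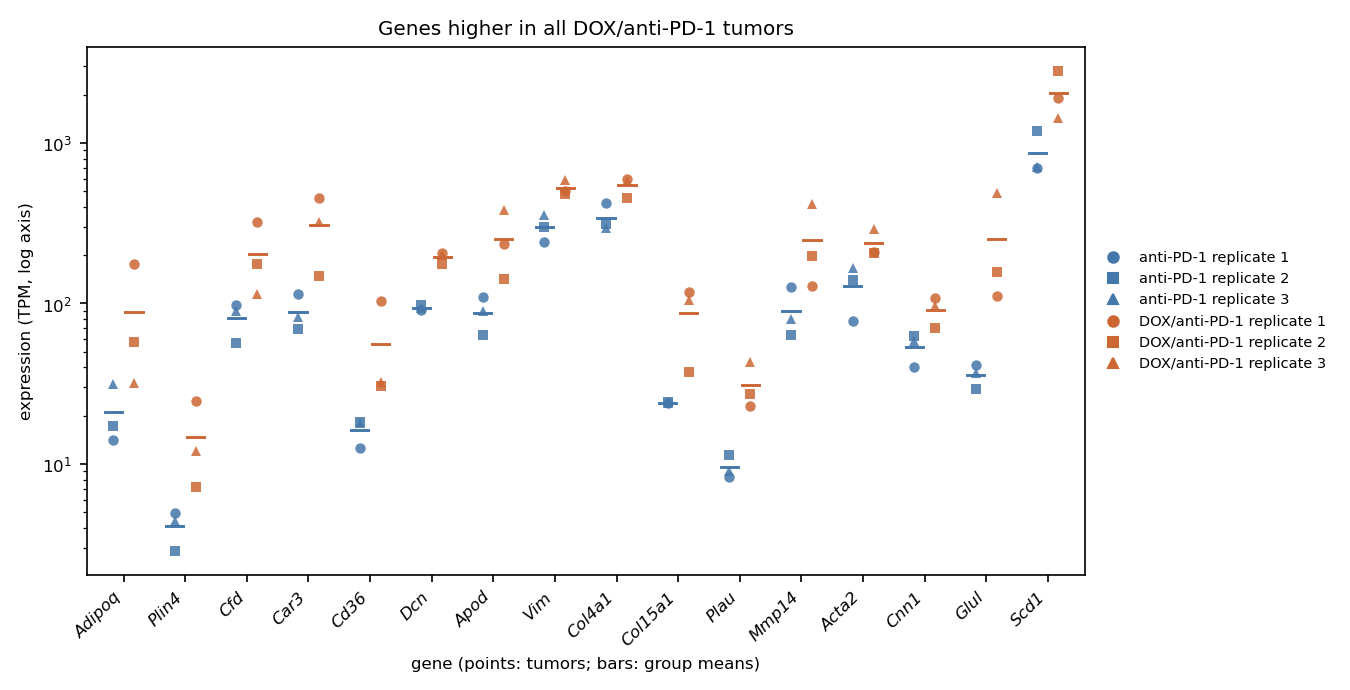
TPM (y axis, log scale) of 16 separated genes that were higher in DOX/anti-PD-1 tumors (x axis), chosen for the text. Points are tumors, blue for anti-PD-1 and orange for DOX/anti-PD-1, and bars are group means, with each orange point above every blue point of the same gene on the deposited scale. After scaling the directions were the same and the groups of Adipoq, Col4a1, Mmp14 and Cnn1 overlapped.

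Basal and myoepithelial markers, of the contractile outer layer of mammary ducts, were higher in 12 of 12 tested members, with 5 separated above (4 scaled), 0 below and a median of 0.63 (0.52 after scaling, 0.95 without DOX/anti-PD-1 replicate 2). Their summed TPM was 328, 487 and 473 in anti-PD-1 and 657, 664 and 1081 in DOX/anti-PD-1 tumors, highest in replicate 3. Acta2, smooth muscle actin and the most abundant of them, had 78.1, 141 and 166 TPM and 210.2, 208 and 293 TPM (0.93, standard error 0.31, 0.61 without anti-PD-1 replicate 1). Oxtr, the oxytocin receptor, had 25.8, 25.8 and 30.2 TPM and 42.3, 43.7 and 69.7 TPM (0.87, standard error 0.27). Myh11, the smooth muscle myosin, had 29.4, 32.7 and 27.1 TPM and 47.9, 39.6 and 100.4 TPM (0.93, standard error 0.34, 0.54 without DOX/anti-PD-1 replicate 3). In these 3 genes DOX/anti-PD-1 replicate 3 was the highest tumor. The light chain kinase Mylk differed by 0.85 and calponin, Cnn1, by 0.76. Contractile genes are shared with vessel walls and activated fibroblasts, and the part of each cell type was not tested.

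Luminal epithelial markers, of the inner layer from which these carcinomas arise, were close to all genes. Of 14, 8 (7 scaled) were higher, 3 separated above (1 scaled) and 0 below (1 scaled), and the median was 0.14, or -0.026 without DOX/anti-PD-1 replicate 1, 0.037 relative to all genes and -0.10 to the same GC class. Their summed TPM was 3746, 2904 and 3158 and 3998, 3777 and 3103, with overlapping groups and Epcam most abundant. The separated members were Krt19, with 406, 255 and 265 TPM and 656, 421 and 779.9 TPM (0.99, standard error 0.30), the tight junction gene Cldn4, with 25.2, 30.8 and 48.0 TPM and 89.6, 56.6 and 72.0 TPM (1.07, standard error 0.30), and Krt7 (0.82, 0.53 without anti-PD-1 replicate 2 and 0.47 without DOX/anti-PD-1 replicate 3). Among 15 hormone and luminal regulators, 10 were higher, 2 separated above (1 scaled), 0 below and the median was 0.36, or 0.081 without DOX/anti-PD-1 replicate 3. Esr1, the estrogen receptor, had 14.9, 10.9 and 13.1 TPM and 24.5, 26.6 and 20.9 TPM (0.84, standard error 0.27). All DOX/anti-PD-1 tumors were clearly above the anti-PD-1 tumors. Gata3, the luminal transcription factor, was separated by less than 1 TPM, with 127, 97.1 and 155 TPM and 156, 166 and 171 TPM (0.40, 0.23 without anti-PD-1 replicate 2).

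Milk protein genes had no common direction, with 5 of 10 higher, 0 separated above, 2 below and a median of 0.19 that turned to -0.10 without DOX/anti-PD-1 replicate 1 and -0.19 without replicate 2. It was -0.067 with a pseudocount of 0.1 and -0.67 in members with a mean of at least 5 TPM. Csn1s1 (ENSMUSG00000070702, chromosome 5, 87666208 to 87682578), an alpha casein, had 112, 138 and 209 TPM in the anti-PD-1 group and 34.4, 52.6 and 41.6 TPM in the DOX/anti-PD-1 group (-1.78, standard error 0.29, limma adjusted p = 0.307). Wap, the whey acidic protein, had 10.5, 18.9 and 8.79 TPM and 8, 2.64 and 3.92 TPM (-1.27, standard error 0.45). Both were lower in all 3 DOX/anti-PD-1 tumors. The most abundant member, the kappa casein Csn3, overlapped with 5979, 9221 and 6830.4 TPM and 5652, 7864 and 2669 TPM.

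Endothelial markers were higher in 12 of 15 tested members, with 5 separated above (3 scaled), 0 below and a median of 0.37 (0.25 after scaling). Their summed TPM was 166, 144 and 164 and 210.2, 243 and 175, so that all DOX/anti-PD-1 sums were above on the deposited scale, DOX/anti-PD-1 replicate 3 by little. Divided by its scaling factor of 1.03, the sum of that tumor fell below that of anti-PD-1 replicate 1, whose factor was 0.9577, and the groups overlapped. Cldn5, the tight junction protein of vessels, had 1.17, 1.8 and 1.21 TPM and 4.02, 6.32 and 3.64 TPM (1.22, standard error 0.42). Flt1, a VEGF receptor, had 12.7, 14 and 16.8 TPM and 18.3, 24.7 and 31.7 TPM (0.72, standard error 0.30), and Vwf, the von Willebrand factor, had 14.8, 8.62 and 10.7 TPM and 16.5, 16.0 and 23.9 TPM (0.69, standard error 0.32). The defining markers did not follow these 3 genes. Pecam1, the most abundant marker, had 24.8, 31.5 and 30.0 TPM and 30.3, 49.4 and 20.7 TPM, and Cdh5, the endothelial cadherin, 31.9, 18.2 and 20.9 TPM and 19.8, 33.1 and 6.65 TPM, both lowest in DOX/anti-PD-1 replicate 3.

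Genes of the known response to doxorubicin had list medians between 0.10 and 0.28. Of 24 p53 targets tested, 17 were higher, 2 separated above (1 scaled) and 1 below (2 scaled), with a median of 0.28, which was 0.072 without DOX/anti-PD-1 replicate 3, 0.17 relative to all genes and 0.11 to the same GC class. Phlda3, an inhibitor of AKT, had 9.22, 8.86 and 8.37 TPM and 22.4, 11.9 and 42.7 TPM (1.27, standard error 0.43, 0.82 without DOX/anti-PD-1 replicate 3), and Plk2, a kinase of centriole duplication, had 37.4, 46.9 and 41.8 TPM and 69.7, 47.2 and 60.9 TPM (0.47, standard error 0.24). Ei24, a protein of the endoplasmic reticulum, was lower, with 185, 172 and 182 TPM and 107, 124 and 100.3 TPM (-0.70, standard error 0.20). So separated members lay in both directions, and Perp, the most abundant one, overlapped with 195, 257 and 215 TPM and 176, 231 and 153 TPM. Among 34 DNA damage genes, 20 (17 scaled) were higher, 2 separated above and 0 below (2 scaled), and the median of 0.12 turned to -0.0044 after scaling and -0.0055 without anti-PD-1 replicate 3. Fancd2, of the repair of DNA crosslinks, had 6.4, 6.73 and 12.5 TPM and 35.0, 22.7 and 15.9 TPM (1.41, standard error 0.39), and the recombination gene Rad52 differed by 0.56.

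The list of doxorubicin targets, efflux pumps and reductases had 14 of 21 members higher, 2 separated above, 0 below and a median of 0.23 (0.15 without anti-PD-1 replicate 1). The main target Top2a, topoisomerase II alpha, had 137, 168 and 124 TPM and 115, 155 and 60.1 TPM, with overlapping groups and the lowest value in DOX/anti-PD-1 replicate 3. The efflux pump Abcc3 had 7.32, 9.06 and 8.26 TPM and 10.6, 15.1 and 20.2 TPM (0.78, standard error 0.33). Apoptosis regulators had 15 (10 scaled) of 23 higher, 1 separated above, 0 below (1 scaled) and a median of 0.10, which turned to -0.03 after scaling and was 0.0097 without anti-PD-1 replicate 2. Casp8, the initiator caspase of death receptors, was the separated gene, with 33.6, 33 and 31.0 TPM and 39.3, 47.6 and 48.8 TPM (0.46, standard error 0.22). Targets of NRF2, the regulator of the antioxidant response, were higher in 15 (12 scaled) of 20, with 4 separated above, 0 below (1 scaled) and a median of 0.23. Gsr, glutathione reductase, had 29.2, 28.6 and 31.7 TPM and 83.6, 41.2 and 60.7 TPM (0.97, standard error 0.29), and Aox1, an aldehyde oxidase, 8.68, 7.64 and 8.04 TPM and 15.7, 16.4 and 23.4 TPM (1.08, standard error 0.30). Both were apart from the anti-PD-1 tumors by a clear gap, Osgin1 differed by 0.95 (0.62 without DOX/anti-PD-1 replicate 1), and the most abundant target, Prdx1, overlapped.

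Proliferation genes were near all genes, and the signs of their medians depended on single tumors. Of 30 mitosis genes, 14 (10 scaled) were higher and 16 lower, with 2 separated above and 1 below (2 scaled). Their median was -0.075, or 0.25 without DOX/anti-PD-1 replicate 3 and 0.07 without anti-PD-1 replicate 2. Mki67, the proliferation marker, had 149.7, 137 and 98.2 TPM and 149.7, 89.4 and 33.9 TPM, lowest in replicate 3. Spag5, a spindle protein, had 69.6, 242 and 73.6 TPM and 42.3, 44.2 and 21.6 TPM (-1.62, standard error 0.48, -1.04 without anti-PD-1 replicate 2), with anti-PD-1 replicate 2 far above the rest. The kinase Ttk of the spindle checkpoint, with 8.91, 9.57 and 9.14 TPM and 16.9, 16.9 and 12.4 TPM (0.67), and Foxm1, a transcription factor of mitosis (0.68), were higher. Of 35 DNA replication genes, 22 (19 scaled) were higher, 2 separated above (1 scaled) and 2 below, with a median of 0.18 that turned to -0.0098 without DOX/anti-PD-1 replicate 1. Rrm1, a subunit of ribonucleotide reductase, had 53.1, 73.5 and 64.0 TPM and 43.5, 49.8 and 45.0 TPM (-0.44, standard error 0.22), and Orc1, of the origin recognition complex, differed by 1.00 (0.50 without anti-PD-1 replicate 1).

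Replication-dependent histones were lower in 48 of 60 tested genes, with a median of -0.66, yet 0 were separated above and 3 below. Their summed TPM was 2738, 3824 and 3815 in anti-PD-1 and 4085, 3238 and 1046 in DOX/anti-PD-1 tumors. The sums of DOX/anti-PD-1 replicates 1 and 2 lay within or above the anti-PD-1 range, replicate 3 lay below all tumors, and without it the median was -0.071. Hist2h2aa1, the most abundant of them, had 430.4, 538 and 454 TPM and 647, 277 and 54.5 TPM. Copies of these genes are nearly identical, so their separate values are uncertain.

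Lymphocyte genes were low in all 6 tumors. T cell markers summed to 33.6, 34.7 and 29.1 TPM in anti-PD-1 and 40.9, 51.2 and 50.9 TPM in the DOX/anti-PD-1 group, higher in all 3. Of 20 listed, 12 were tested, 7 were higher, 2 separated above (1 scaled) and 1 below, and the median was 0.35, or 0.11 without DOX/anti-PD-1 replicate 1. Cd3g, the most abundant of them, a chain of the T cell receptor complex, had 1.65, 2.7 and 4 TPM and 7.56, 2.27 and 15.1 TPM, and Cd3e was listed at 0, 7.84 and 1.58 TPM and 3.31, 7.3 and 11.0 TPM, so that groups overlapped in both. Cd247, another chain of this complex, had 9.37, 3.05 and 8.15 TPM and 2.3, 8.02 and 0 TPM. The separated member below was Il2ra, the high-affinity IL-2 receptor chain, with 3.12, 1.81 and 2.33 TPM and 0.41, 1.42 and 1.13 TPM. T cells were measured by flow cytometry in the paper, and their part in these values was not tested here.

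NK cell and cytotoxic genes reached the minimum in 11 of 22, of which 7 were higher, 0 separated above and 0 below. Their median was 0.24 and turned to -0.16 without DOX/anti-PD-1 replicate 2, and their sums were 32.4, 43.2 and 57.7 and 47.9, 94.7 and 55.1 TPM. The most abundant was the integrin Itga2, which other cells express too, with 10.2, 12.1 and 9.83 TPM and 11.3, 23.1 and 7.87 TPM. Ncr1, the receptor that defines NK cells, was listed at 0, 1.3 and 0 TPM and 1.29, 1.66 and 0 TPM. The NK receptor chain Klrd1 had 3.06, 4.83 and 11.0 TPM and 3.86, 9.1 and 13.5 TPM, and Klrk1, the activating receptor NKG2D, 1, 1.15 and 4.26 TPM and 1.9, 4.08 and 8.12 TPM. In each of these the groups overlapped. The granule protease Gzmb was listed at 4.67, 4.94 and 2.42 TPM and 10.7, 4.01 and 0 TPM and perforin, Prf1, at 0.79, 0 and 0 TPM and 0.91, 1.56 and 0 TPM, which left Prf1 untested. The cytokine gene Ifng was at 0 in every tumor of the DOX/anti-PD-1 group and at 0, 0.53 and 0 TPM in the anti-PD-1 group. The part of NK cell number in these values was not tested.

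Of 12 B and plasma cell markers listed, 3 were tested, and Mzb1 and Tnfrsf17, which mark plasma cells, were listed at 0 in all 6 tumors. Sums were 5.41, 4.59 and 12.0 and 13.8, 20.3 and 14.4 TPM. The median of the 3 genes was 0.86, or 0.16 without DOX/anti-PD-1 replicate 2 and 1.52 without replicate 1, with 1 separated above (0 scaled) and 0 below. Pou2af1, a coactivator of B cells and the most abundant of them, had 0.63, 0.95 and 2.98 TPM and 9.85, 3.02 and 10.2 TPM (1.76, standard error 0.56). B cells, too, were measured by flow cytometry in the paper, and their part in these values was not tested here.

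Macrophage and monocyte markers were higher in 15 of 21, with 1 separated above, 0 below and a median of 0.28 (0.10 without anti-PD-1 replicate 1). Their sums of 1543, 1669.6 and 1231 and 1119.9, 1658 and 2002 TPM overlapped. Apoe, the most abundant, had 912, 757 and 481 TPM and 421, 515 and 1042 TPM, and Lyz2, lysozyme, 175, 272 and 198 TPM and 154, 303 and 361 TPM, both highest in DOX/anti-PD-1 replicate 3. Neutrophil markers had 4 of 9 higher, 0 separated above and 0 below, and a median of -0.11 that turned to 0.11 without DOX/anti-PD-1 replicate 1, 0.046 without anti-PD-1 replicate 1 and 0.057 without anti-PD-1 replicate 3. Their sums of 1196, 899 and 806 and 1591, 1064 and 738 TPM came mostly from Ltf, lactoferrin, which mammary epithelium makes too, and the defining markers Ly6g and Camp were listed at 0 in all tumors, as was the growth factor Csf2. Dendritic cell markers had 7 of 10 higher, 2 separated above, 1 below (2 scaled) and a median of 0.25 (0.059 without anti-PD-1 replicate 3, 0.71 without anti-PD-1 replicate 1). Their sums were 727, 786 and 727 and 792, 688 and 511 TPM, most of it Cd24a, which carcinoma cells express. Zbtb46, a transcription factor of conventional dendritic cells, had 3.3, 4.6 and 4.21 TPM and 8.91, 9.02 and 7.5 TPM (0.92, standard error 0.34). Itgax, the integrin CD11c, was lower, with 46.9, 28.5 and 23.7 TPM and 14.2, 12.6 and 12.8 TPM (-1.20, standard error 0.31). The pair of markers thus lay in opposite directions, and the part of dendritic cell number was not tested.

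Immune checkpoint genes were spread to both sides. Of 19 tested, 11 were higher, 2 separated above (1 scaled) and 2 below (3 scaled), with a median of 0.14 (0.34 without DOX/anti-PD-1 replicate 3, -0.080 with a pseudocount of 0.1). Vtcn1, the inhibitory ligand B7-H4 of epithelial tumor cells, had 16, 17.1 and 18.5 TPM and 24.6, 41.7 and 54.3 TPM (1.11, standard error 0.32), and Cd86, a ligand of CD28 and CTLA-4, 3.18, 6.54 and 4.84 TPM and 11.3, 7.55 and 7.36 TPM (0.75, standard error 0.38). Havcr2, the receptor TIM-3, had 8.94, 8.1 and 5.74 TPM and 5.11, 5.33 and 3.98 TPM (-0.55, standard error 0.35). Cd274, which encodes PD-L1, overlapped with 3.98, 1.87 and 2.75 TPM and 6.58, 4.78 and 3.67 TPM. Pdcd1lg2, the other PD-1 ligand, was listed at 0 in all 6 tumors, and Ctla4 reached 0, 0.32 and 0 TPM in the anti-PD-1 group and 0 in DOX/anti-PD-1 tumors.

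Antigen presentation was near all genes. MHC class I presentation genes were higher in 14 of 22, with 1 separated above (0 scaled), 0 below (2 scaled) and a median of 0.15 that was 0.04 relative to all genes, -0.072 to the same GC class and 0.0028 without DOX/anti-PD-1 replicate 1. Nlrc5, the transactivator of class I genes, had 168, 65.8 and 70.0 TPM and 204, 171 and 202 TPM (1.05, standard error 0.35), while B2m, the common light chain, had 1555, 1655 and 1926 TPM and 1741, 2344 and 451 TPM, lowest in DOX/anti-PD-1 replicate 3. MHC class II genes had 6 of 11 higher, 1 separated above, 1 below and a median of 0.18, or -0.13 without DOX/anti-PD-1 replicate 1, 0.068 relative to all genes, -0.0041 to the same GC class, -0.14 with a pseudocount of 0.1 and -0.20 in members with a mean of at least 5 TPM. The class II chain H2-Eb1 had 131, 143 and 118 TPM and 154, 172 and 166 TPM (0.32), and the peptide-trimming cathepsin Ctss 498, 453 and 487 TPM and 343, 404 and 352 TPM (-0.39). Interferon-stimulated genes had 22 (16 scaled) of 36 higher, 1 separated above, 1 below (2 scaled) and a median of 0.039 that turned to -0.086 after scaling, -0.069 relative to all genes, -0.024 to the same GC class, -0.015 without DOX/anti-PD-1 replicate 2 and -0.047 without anti-PD-1 replicate 3. The RNA sensor Dhx58 had 33.3, 23.3 and 32.7 TPM and 57.2, 43.0 and 36.9 TPM (0.60), and Xaf1, which promotes apoptosis, 92.5, 76.5 and 84.8 TPM and 69.2, 49.2 and 47.6 TPM (-0.62).

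The IL-12 family and its signaling genes had 8 of 12 tested members higher, 2 separated above (1 scaled), 2 below and a median of 0.10, which turned to -0.004 relative to all genes, -0.028 to the same GC class, -0.047 without DOX/anti-PD-1 replicate 2 and -0.083 without anti-PD-1 replicate 2. The separated lower members were Il12a and Stat4, both at 0 in each tumor of the DOX/anti-PD-1 group and tested only because all 3 anti-PD-1 tumors reached 1 TPM. Socs3, a feedback inhibitor of cytokine receptors, had 10.1, 10.7 and 9.64 TPM and 14.4, 18.3 and 58.5 TPM (1.23, standard error 0.47, 0.63 without DOX/anti-PD-1 replicate 3), with replicate 3 far above the others. The receptor chains Il12rb1, Il12rb2, Il23r and Il27ra were too low to be tested.

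Chemokines had 14 of 25 higher, 4 separated above (2 scaled), 2 below and a median of 0.18 (-0.025 without DOX/anti-PD-1 replicate 2, 0.069 relative to all genes, -0.049 to the same GC class). Cxcl15 had 2.29, 0.29 and 1.06 TPM and 6.12, 3.38 and 15.1 TPM and Ccl12, which attracts monocytes, 0, 4.44 and 7.02 TPM and 8.8, 8.31 and 7.99 TPM. Ccl21a, which guides T cells to lymph nodes and has near-identical copies, had 1.97, 16.3 and 8.8 TPM in the anti-PD-1 group. It was listed at 0 in DOX/anti-PD-1 tumors and so was tested only because of the anti-PD-1 group. Ccl1, Ccl17, Ccl20, Ccl26 and Ccl27b were listed at 0 in all 6. Chemokine receptors had 4 of 11 higher, 1 separated above, 0 below and a median of -0.08, or 0.14 without DOX/anti-PD-1 replicate 3 and 0.21 without anti-PD-1 replicate 2. The separated member was Ackr1, with 0, 0.39 and 0.52 TPM and 3.42, 1.47 and 1.51 TPM. It was tested, and so counted as separated, only because all 3 DOX/anti-PD-1 tumors reached 1 TPM. The most abundant, Cxcr4, overlapped with 34.4, 91.7 and 50.5 TPM and 49.8, 71.7 and 31.5 TPM.

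Complement genes were higher in 12 of 20, with 3 separated above (2 scaled), 2 below and a median of 0.19 (-0.10 without DOX/anti-PD-1 replicate 2). The separated members below, both membrane inhibitors of complement, were Cd59a with 65.0, 84.7 and 85.2 TPM and 23.3, 56.4 and 27.2 TPM (-1.21, standard error 0.34) and Cd55 with 147, 171 and 183 TPM and 126, 132 and 129 TPM (-0.36, standard error 0.20). Component C2 was higher, with 5.34, 5.33 and 4.69 TPM and 15.3, 8.57 and 7.82 TPM (0.86, standard error 0.37). Acute phase and secreted defense genes were mostly lower, 11 of 17, with 2 separated above (1 scaled), 3 below (6 scaled) and a median of -0.45 that was -0.28 without DOX/anti-PD-1 replicate 3 and -0.77 without anti-PD-1 replicate 2. Saa1 and Saa2, serum amyloids whose near-identical sequences make their separate values uncertain, had 262, 152 and 194 TPM and 37.3, 91.8 and 149 TPM for Saa1 (-1.29, -0.75 without DOX/anti-PD-1 replicate 1) and 44.8, 27.8 and 71.5 TPM and 24.9, 23.1 and 19.0 TPM for Saa2 (-0.98, -0.65 without anti-PD-1 replicate 3). Lcn2, the iron-binding lipocalin, had 2641, 3133 and 4873 TPM and 2052, 2928 and 1556 TPM, with overlapping groups. Hp, haptoglobin, was higher by a narrow margin, with 56.0, 16.6 and 31.8 TPM and 56.5, 80.5 and 56.4 TPM (1.01, standard error 0.40, 0.58 without anti-PD-1 replicate 2).

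Signaling lists had medians between 0.019, for thyroid hormone genes before scaling turned it, and 0.34, for Hedgehog genes (0.044 without a filter). TGF-beta and BMP genes had 14 of 23 higher, 3 separated above, 0 below and a median of 0.14 (-0.021 without DOX/anti-PD-1 replicate 2, 0.035 relative to all genes, -0.013 to the same GC class). Id4, an inhibitor of DNA binding that mammary stem cells express, had 5.93, 7.23 and 7.18 TPM and 28.3, 14.1 and 48.2 TPM (1.85, standard error 0.43). The coreceptor Tgfbr3 had 53.7, 62.5 and 56.2 TPM and 69.2, 112 and 121 TPM (0.76), and Bmp1, a protease that processes procollagen, 12.3, 12.1 and 11.1 TPM and 17.6, 25.3 and 23.4 TPM (0.83). All 3 were higher in each DOX/anti-PD-1 tumor, Id4 by the widest margin. Hedgehog genes had 8 of 10 higher, 2 separated above (1 scaled), 0 below and a median of 0.34 (0.17 without anti-PD-1 replicate 2, 0.23 relative to all genes, 0.12 to the same GC class), with 8.69, 9.2 and 11.8 TPM and 14.3, 38.2 and 19.2 TPM for the coreceptor Gas1 (1.08, standard error 0.38, 0.70 without DOX/anti-PD-1 replicate 2), and the ligand Ihh listed at 0 throughout. WNT genes had 16 of 32 higher, 6 separated above (2 scaled), 1 below (4 after scaling) and a median of 0.088 that turned to -0.036 after scaling, -0.02 relative to all genes and -0.059 to the same GC class, and was 0.18 without anti-PD-1 replicate 1. Their most abundant gene, the coreceptor Lrp6, had 208, 204 and 216 TPM and 135, 175 and 124 TPM (-0.54, standard error 0.22).

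Sox genes had 8 of 13 higher, 1 separated above, 0 below (1 scaled) and a median of 0.16 (-0.024 without DOX/anti-PD-1 replicate 2, -0.063 without anti-PD-1 replicate 2, 0.05 relative to all genes, -0.073 to the same GC class). Eph receptors and ephrins had 9 of 15 higher, 1 separated above, 1 below and a median of 0.15 (-0.10 without DOX/anti-PD-1 replicate 2, 0.04 relative to all genes, -0.033 to the same GC class). Epha7 (ENSMUSG00000028289, chromosome 4, 28813131 to 28967499), a receptor of ephrin A ligands, had 79.0, 64.5 and 87.3 TPM and 30.3, 36.8 and 33.9 TPM (-1.16, standard error 0.23), and its groups were far apart. The ligand Efnb1 was higher, with 4.43, 7.41 and 5.8 TPM and 13.0, 10.5 and 8.7 TPM (0.78). ErbB receptors and ligands had 7 of 13 higher, 1 separated above, 0 below and a median of 0.20. This median was -0.27 with a pseudocount of 0.1, -0.033 without anti-PD-1 replicate 1 and 0 without DOX/anti-PD-1 replicate 3.

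Calcium pumps and channels had 10 of 17 higher, 1 separated above, 1 below (3 scaled) and a median of 0.13 (-0.094 without DOX/anti-PD-1 replicate 2, -0.038 without anti-PD-1 replicate 3, 0.022 relative to all genes, -0.034 to the same GC class). Atp2a3, the pump of the endoplasmic reticulum SERCA3, was the separated lower member, with 439, 258 and 529.9 TPM and 118, 165 and 86.5 TPM, and the store-operated channel Orai3 the higher one, with 21.2, 31.3 and 28.4 TPM and 33.6, 39.0 and 42.2 TPM (0.50, standard error 0.25). Atp2b3 was listed at 0 in all 6 tumors.

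Thyroid hormone and iodide genes had 6 (5 scaled) of 11 higher, 1 separated above, 1 below (2 scaled) and a median of 0.019 that turned to -0.092 after scaling, -0.089 relative to all genes, -0.062 to the same GC class, -0.088 without DOX/anti-PD-1 replicate 2 and -0.07 without anti-PD-1 replicate 2. Slc26a4, the anion exchanger pendrin, had 7.84, 1.21 and 12.5 TPM and 0, 0.26 and 0.54 TPM (-2.36, standard error 0.67). It was tested, and so counted as separated, only because all 3 anti-PD-1 tumors reached 1 TPM. Dio1, a deiodinase that activates thyroid hormone, was listed at 0 in all 6 tumors.

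Glycolysis genes were mostly lower, 17 of 23, with 2 separated above (1 scaled) and 3 below. Their median was -0.24, or -0.033 without DOX/anti-PD-1 replicate 3 and -0.077 without anti-PD-1 replicate 3, but -0.45 without DOX/anti-PD-1 replicate 2, -0.34 relative to all genes and -0.48 to the same GC class. Ldha, lactate dehydrogenase, had 722, 561 and 892 TPM and 516, 559 and 303 TPM (-0.68, standard error 0.31, -0.41 without DOX/anti-PD-1 replicate 3), and Pgm2l1, a glucose bisphosphate synthase, 42.2, 36.9 and 47.7 TPM and 13.7, 22.6 and 20.8 TPM (-1.13, standard error 0.27). The separated members above were Hk2, a hexokinase, with 7.79, 8.32 and 6.85 TPM and 14.5, 14.8 and 12.5 TPM (0.79), and Pfkfb3, which sets the level of an activator of phosphofructokinase, with 46.8, 29.2 and 55.1 TPM and 71.2, 63.3 and 119.8 TPM (0.93). For Ldha the gap was under 3 TPM, for Pgm2l1 it was wide. Hypoxia response genes had 12 of 20 higher, 2 separated above (0 scaled), 0 below and a median of 0.22, turning to -0.028 without DOX/anti-PD-1 replicate 2. Vegfa, the vascular growth factor, had 44.8, 57.0 and 39.5 TPM and 72.7, 90.2 and 61.0 TPM (0.65, standard error 0.25).

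The list of pyruvate dehydrogenase kinases and phosphatases, with the subunits of the complex, had 7 (6 scaled) of 12 higher, 4 separated above (1 scaled), 1 below and a median of 0.12 that turned to -0.0029 after scaling and was 0.26 without DOX/anti-PD-1 replicate 3. Dlat, the acetyltransferase subunit, had 18.0, 39.4 and 33.3 TPM and 61.1, 40.4 and 40.0 TPM (0.67, standard error 0.33, 0.34 without anti-PD-1 replicate 1). Among the kinases that switch the complex off, Pdk1 had 19.3, 35.9 and 32.4 TPM and 24.4, 46.6 and 18.3 TPM, Pdk2 30.9, 21.0 and 18.7 TPM and 45.8, 29.3 and 42.3 TPM, Pdk3 20.8, 25.1 and 29.4 TPM and 32.0, 24.5 and 7.18 TPM and Pdk4 1.38, 0.88 and 1.6 TPM and 20, 2.92 and 12.4 TPM. Only Pdk4 of these 4 was separated, and DOX/anti-PD-1 replicates 1 and 3 were far above replicate 2.

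Respiratory chain genes had 42 (52 scaled) of 75 lower, 5 separated above (2 scaled) and 8 below (9 scaled), with a median of -0.051 that turned to 0.14 without DOX/anti-PD-1 replicate 3 and 0.028 without anti-PD-1 replicate 3. Cox6c, of cytochrome c oxidase, had 697, 738 and 813 TPM and 492, 383 and 141 TPM (-1.32, standard error 0.42, -0.79 without DOX/anti-PD-1 replicate 3), and Atp5l, of ATP synthase, 85.9, 139.8 and 179.9 TPM and 40.9, 81 and 34.1 TPM (-1.40, standard error 0.37). Ndufv1, of complex I, was higher, with 57.4, 68.3 and 71 TPM and 128, 91.5 and 126 TPM (0.79, standard error 0.23). Cytosolic ribosomal proteins had 46 (53 scaled) of 83 lower, 6 separated above, 1 below (3 scaled) and a median of -0.052, or 0.17 without DOX/anti-PD-1 replicate 3 and 0.059 without anti-PD-1 replicate 3. Rps16 had 128, 216 and 276 TPM and 377, 373 and 344 TPM (0.89, 0.58 without anti-PD-1 replicate 1), Rplp2 differed by 0.67 and Rpl5 by -0.57, and the most abundant, Rpl13a, overlapped. Proteasome subunits had 20 (24 scaled) of 37 lower, 3 separated above (2 scaled), 4 below (6 scaled) and a median of -0.009, or 0.11 without DOX/anti-PD-1 replicate 3 and 0.01 without anti-PD-1 replicate 3. Psmd2, of the lid and base particle, had 152, 164 and 146 TPM and 237, 205 and 259 TPM (0.59, standard error 0.21).

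Genes of the unfolded protein response, by which the endoplasmic reticulum adjusts its folding capacity, were lower in 16 (19 scaled) of 24, with 0 separated above, 3 below and a median of -0.22 that turned to 0.059 without DOX/anti-PD-1 replicate 3. Xbp1, the transcription factor of this response, had 968, 1004 and 815 TPM and 593, 718 and 544 TPM (-0.59, standard error 0.24). Its target Dnajb9 had 135, 149 and 169 TPM and 85.2, 92.8 and 42.7 TPM (-1.10, standard error 0.31), and the lectin chaperone calnexin, Canx, 1348, 933 and 913 TPM and 809.9, 727 and 568 TPM (-0.59, standard error 0.27). All 3 were lower in each DOX/anti-PD-1 tumor, lowest in replicate 3.

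The list of heat shock genes holds chaperones of the cytosol and of mitochondria, and the transcription factor gene Hsf1. Its members were lower in 13 of 16, with 2 separated above (1 scaled) and 3 below (5 scaled). The median was -0.23 (-0.36 after scaling, -0.34 relative to all genes, -0.43 to the same GC class). Dnaja1, a cochaperone of HSP70, had 244, 179.8 and 162 TPM and 120.3, 117 and 96.3 TPM (-0.79, standard error 0.23). Hsph1, which exchanges the nucleotide of HSP70, had 81.2, 80.1 and 82.8 TPM and 24.9, 63.3 and 56.7 TPM (-0.85, standard error 0.34, -0.44 without DOX/anti-PD-1 replicate 1). The small heat shock protein Hspb1 had 58.1, 46.6 and 79.0 TPM and 46.5, 32.1 and 13.5 TPM (-1.10, standard error 0.42, -0.62 without DOX/anti-PD-1 replicate 3). These were the 3 separated lower members, Dnaja1 by the widest gap and Hspb1 by less than 1 TPM. Hspa8, the most abundant chaperone, overlapped with 2495, 3378 and 3245 TPM and 2389, 2358 and 2627 TPM. Hsf1 itself was higher, with 7.26, 7.14 and 6.14 TPM and 10.2, 11.9 and 14.2 TPM.

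Because these 3 genes lay in the same direction, their promoters are shown, from 250 bases before to 50 bases after the start site (RefSeq, GRCm38.p6), written 5′ to 3′ on the strand of the gene. Capitals mark a pair of heat shock units, GAA and TTC in either order with 2 bases between them, which reads the same on both strands and may overlap the next. The promoter of Dnaja1 (chr4:40722218-40722517, plus strand) holds 1 match, that of Hsph1 (chr5:149636266-149636565, minus strand) 3 matches, the first of them 54 bases before the start, and that of Hspb1 (chr5:135887669-135887968, plus strand) 2 matches.
Dnaja1: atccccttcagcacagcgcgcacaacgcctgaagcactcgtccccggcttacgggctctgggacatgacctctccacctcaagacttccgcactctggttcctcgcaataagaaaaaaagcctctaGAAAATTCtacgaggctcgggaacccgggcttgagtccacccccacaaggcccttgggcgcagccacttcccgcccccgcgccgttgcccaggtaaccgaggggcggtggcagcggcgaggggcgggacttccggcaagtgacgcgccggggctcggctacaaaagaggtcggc
Hsph1: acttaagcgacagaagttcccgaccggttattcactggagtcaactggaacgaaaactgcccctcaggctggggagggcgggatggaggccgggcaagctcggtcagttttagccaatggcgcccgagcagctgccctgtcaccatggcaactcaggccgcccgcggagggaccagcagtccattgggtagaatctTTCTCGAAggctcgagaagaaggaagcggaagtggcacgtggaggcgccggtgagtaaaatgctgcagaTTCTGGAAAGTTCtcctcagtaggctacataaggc
Hspb1: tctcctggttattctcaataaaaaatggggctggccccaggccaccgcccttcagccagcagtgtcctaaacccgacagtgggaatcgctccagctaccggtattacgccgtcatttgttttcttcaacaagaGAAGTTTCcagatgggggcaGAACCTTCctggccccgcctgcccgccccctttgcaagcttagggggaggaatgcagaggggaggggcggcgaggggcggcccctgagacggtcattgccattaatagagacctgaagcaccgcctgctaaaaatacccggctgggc
Of the 16 heat shock genes, 11 had an annotated promoter, and in 9 of the 11 at least 1 promoter held the motif. Among these was Hspb8, which was separated in the other direction, with 16.8, 14.2 and 17.4 TPM and 29.2, 19.0 and 22.4 TPM. Among all 32851 annotated promoters, 15.1% held it, and 17.0% of 27025 genes had such a promoter. A match is a description of the sequence and shows neither binding nor a cause of the lower values.

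Immediate early genes had 17 (12 scaled) of 23 higher, 4 separated above (3 scaled), 0 below and a median of 0.13 (0.008 after scaling, 0.025 relative to all genes, -0.074 to the same GC class, 0.012 without DOX/anti-PD-1 replicate 3). Jund, a subunit of the AP-1 factor, had 47.4, 35.4 and 56.4 TPM and 65.4, 69.9 and 65.4 TPM (0.54, standard error 0.24). Egr3, a zinc finger factor, had 0, 0.45 and 0.4 TPM and 1.34, 5.17 and 1.21 TPM (1.32, standard error 0.56, 0.84 without DOX/anti-PD-1 replicate 2). Egr3 was tested, and so counted as separated, only because all 3 DOX/anti-PD-1 tumors reached 1 TPM. Fos, the most abundant, had 56.3, 55.1 and 81.6 TPM and 131, 49.7 and 229 TPM, high in DOX/anti-PD-1 replicates 1 and 3 and overlapping through replicate 2.

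**Figure D4:**
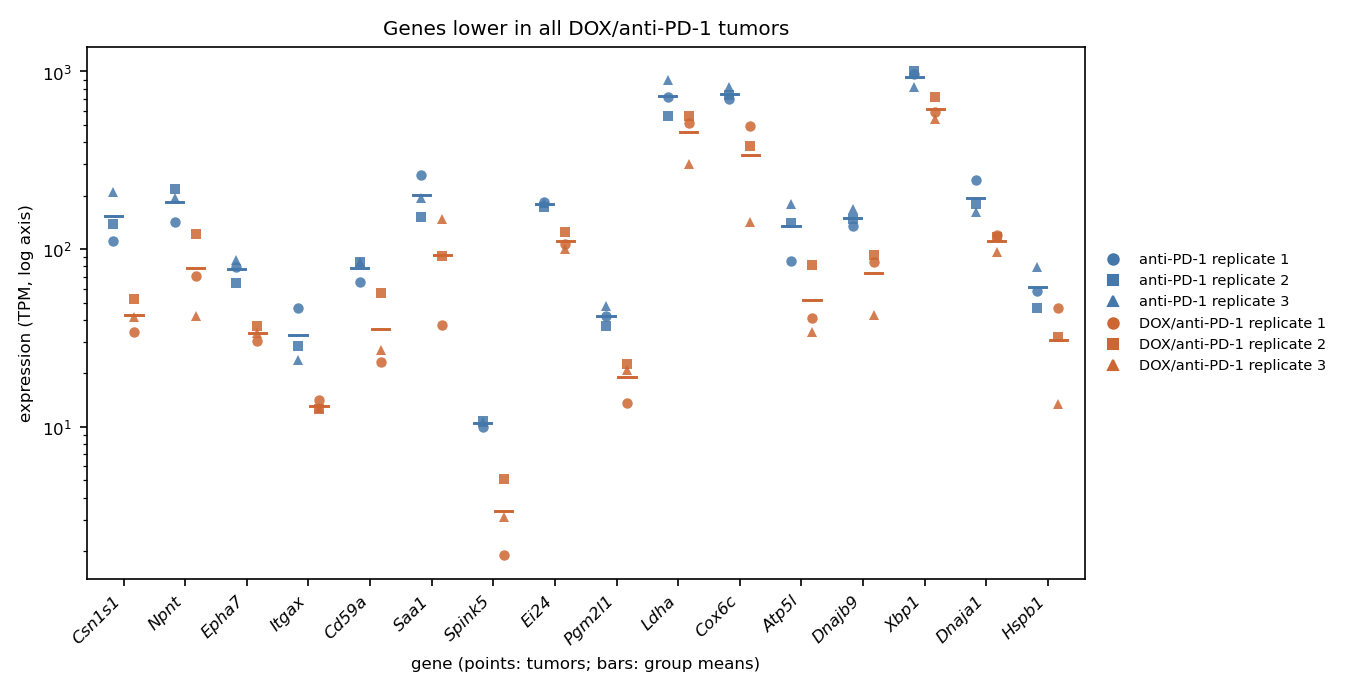
TPM (y axis, log scale) of 16 separated genes that were lower in DOX/anti-PD-1 tumors (x axis), chosen for the text. Points are tumors, blue for anti-PD-1 and orange for DOX/anti-PD-1, and bars are group means, with each orange point below every blue point of the same gene. After scaling the directions and the separation of these genes were the same.

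Markers of neighboring tissues varied from tumor to tumor. Skeletal muscle markers summed to 944, 109 and 50.6 TPM in the anti-PD-1 group and 1633, 24.2 and 315 TPM in the DOX/anti-PD-1 group, highest in replicate 1 of each group. Of 19 tested, 10 (9 scaled) were higher, 0 separated above and 0 below, and the median of 0.02 turned to -0.075 after scaling, -0.088 relative to all genes, -0.12 to the same GC class and -1.20 without DOX/anti-PD-1 replicate 1, -0.15 without anti-PD-1 replicate 2 and -0.45 without anti-PD-1 replicate 3, and was 1.87 without DOX/anti-PD-1 replicate 2. Myl1, a myosin light chain and the most abundant, had 111, 18.3 and 5.95 TPM and 258, 0.76 and 33.5 TPM. DOX/anti-PD-1 replicate 1 was the tumor with the highest sums of both fat and muscle markers, but anti-PD-1 replicate 1, high in muscle markers, did not have the highest adipocyte sum of its group. The part of muscle tissue in other values was not tested.

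Salivary gland markers, of which 8 of 17 listed were tested, summed to 2478, 600.3 and 2374 TPM and 963, 488 and 778 TPM. In anti-PD-1 replicates 1 and 3 the sums were above all other tumors, and replicate 2 lay among the DOX/anti-PD-1 tumors. Of the tested genes 2 were higher and 6 lower, 0 separated above and 0 below, with a median of -0.52 (-0.84 without DOX/anti-PD-1 replicate 1, -0.31 without replicate 3). The most abundant, the secretoglobin Scgb2b27, had 1877, 438 and 1817 TPM and 552, 309 and 636 TPM, while Bpifa2, Dcpp1, Prb1 and Kap were listed at 0 in all 6 tumors. Salivary gland content was not tested.

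Keratinocyte and squamous markers had a median of -0.90 (-0.98 after scaling, -0.43 without a filter). It was the lowest of the 57 lists with all 6 tumors and the stated minimum, but not without a filter or without some single tumors. Of 12 tested, 10 were lower, 0 separated above and 4 below. Their sums of 99.6, 117 and 149.8 TPM in anti-PD-1 and 79.3, 71.5 and 76.4 TPM in the DOX/anti-PD-1 group did not overlap. Spink5, a protease inhibitor of the epidermis, had 9.99, 10.8 and 10.7 TPM and 1.91, 5.07 and 3.11 TPM (-1.46, standard error 0.39). Flg2, a filaggrin relative of the horny layer, had 2.15, 9.14 and 5.21 TPM and 0.26, 0.11 and 0 TPM (-2.38, standard error 0.54). The desmosomal Dsg1a had 1.45, 4.67 and 1.05 TPM in the anti-PD-1 group and was listed at 0 in DOX/anti-PD-1 tumors. Flg2 and Dsg1a were tested, and so counted as separated, only because all 3 anti-PD-1 tumors reached 1 TPM. Spink5, Flg2 and Dsg1a were low in all tumors, Calml3 was the most abundant with overlapping groups, and Krt6b and Sprr1b were listed at 0 throughout. The part of skin in the libraries was not tested.

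Schwann cell and nerve markers had 7 of 10 higher, 0 separated above, 1 below and a median of 0.49 (0.30 without anti-PD-1 replicate 1), with sums of 201, 243 and 276 and 257, 275 and 278 TPM that overlapped. Cdh19 was the most abundant, and Cnp, a protein of myelin, was lower, with 25.4, 34.0 and 50.2 TPM and 21.1, 18.6 and 16.8 TPM (-0.87, standard error 0.30). Lymph node stroma markers had 3 of 5 higher, 0 separated above, 1 below and a median of 0.44 that turned to -0.0059 without DOX/anti-PD-1 replicate 2. Their sums were 6.15, 21.3 and 21.6 and 5.32, 23 and 5.02 TPM, Ccl21a was the most abundant and separated lower member, and Madcam1, an addressin of lymphoid vessels, was listed at 0 in all 6 tumors. The parts of nerve and lymph node tissue were not tested.

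**Figure D5:**
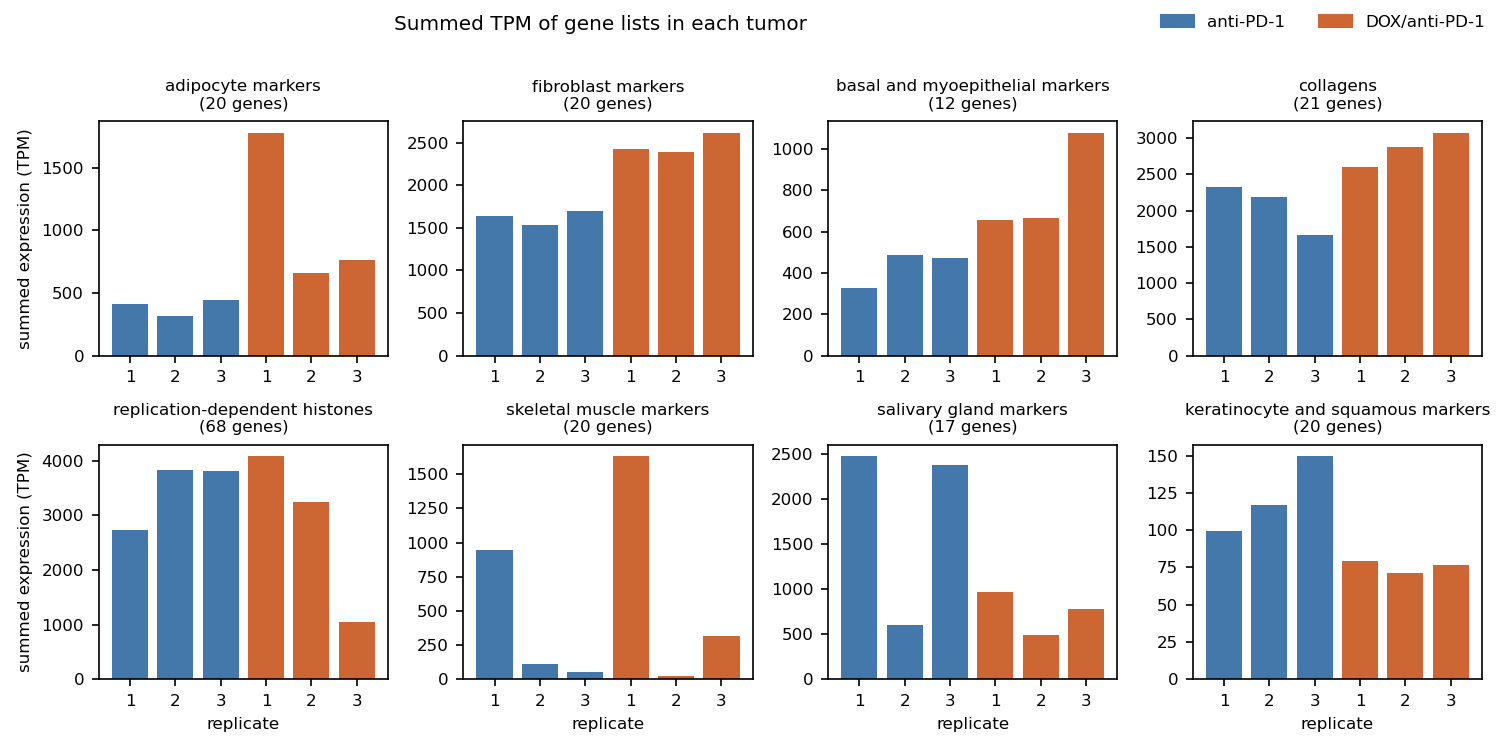
Summed TPM (y axis, from 0) of 8 gene lists in each tumor (x axis, replicates 1 to 3 of each group), blue for anti-PD-1 and orange for DOX/anti-PD-1. The sums of adipocyte, fibroblast, basal and collagen genes were higher in each DOX/anti-PD-1 tumor and those of keratinocyte markers lower, whereas the muscle sums were highest in replicate 1 of each group and the histone sum was lowest in DOX/anti-PD-1 replicate 3.

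Whether the doxorubicin difference was another one without PD-1 blockade was tested as an interaction over all 12 tumors. Of 14735 genes, 1 (0.00679%) passed with limma, 694 had an unadjusted p below 0.05, and the median interaction was -0.0077, with a positive value standing for a larger difference in the presence of anti-PD-1. The gene was Bpifa2 (ENSMUSG00000042459, chromosome 2, 154008265 to 154016079), a salivary gland protein with 14.4, 21.3 and 53.7 TPM in the 3 DOX/IgG1 tumors and 0 in the other 9, so that it was tested only because of the group in which it was high (limma adjusted p = 0.0909). The interaction thus came from a difference between the IgG1 groups, in 3 of 3 tumors, and the call was lost with another pseudocount, after scaling, without any tumor but DOX/IgG1 replicate 1. None of the 124 separated genes passed the interaction test, with the lowest adjusted p at 0.938. A p that misses the limit does not show that the difference was alike with both antibodies.

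The same lists gave a median difference of doxorubicin with IgG1, DOX/IgG1 minus IgG1, for tumors that share none with the comparison of the anti-PD-1 groups. Over 13874 genes it was 0.12. Adipocyte markers had 0.48 with IgG1 over 19 genes beside 1.37 with anti-PD-1, and a median interaction of 0.90. For fibroblast markers it was 0.46 beside 0.66 (interaction 0.31), for basal markers 0.45 beside 0.63 (0.29) and for collagens -0.27 beside 0.60 (0.77). The median of fibroblast and basal markers was thus on the same side with both antibodies, and that of collagens was not. The tested members differ where levels are low. Histones had -0.80 with IgG1 over 50 genes (60 with anti-PD-1), acute phase genes -0.66 over 14 (17), and keratinocyte markers -0.47 over 8 (12), each below 0 as with anti-PD-1. Glycolysis genes had 0.21 with IgG1 beside -0.24 (interaction -0.35), and salivary gland markers 0.90 over 12 genes beside -0.52 over 8 (-0.98), so these lay on opposite sides of 0, and the latter list holds Bpifa2. Milk protein genes had -1.73 with IgG1 (interaction 1.11), p53 targets 0.68 (-0.36), MHC class I genes 0.61 (-0.42), unfolded protein response genes -0.62 (0.40) and NK cell genes 0.87 (-0.25). These medians are descriptions, and no list was tested for the difference between antibodies.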

How the data were processed

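The authors used skewer to trim single-end reads of a stranded total RNA library (NextSeq 500), STAR to align them to mm10 and RSEM to quantify genes, per the study's methods and the labels. They deposited log2 values of TPM + 1, written with decimal commas, for 21960 genes in each tumor. The ranges of these values were checked by script, since the commas kept them from being read as plain numbers. After the log2 step was reversed, the sums of TPM lay between 609418 and 725506. The files list 0 mitochondrial genes. By identifier, 21860 genes were matched to GENCODE vM21, which gave coordinates and transcripts on GRCm38. As TPM hold no counts, neither depth nor counting error is known.

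Genes with at least 1 TPM in 3 or more of the 6 tumors were compared with limma 3.58.1 (R 4.3.3), by lmFit and eBayes on log2(TPM + 1) with a trend of variance on mean, two-sided with Benjamini-Hochberg adjustment over all genes tested. A call needed an adjusted p under 0.1 and a log2 difference above 1 in either direction. The interaction was fitted over all 12 tumors with the same settings. Lists, sums, GC classes and figures were computed with Python 3.11.15, pandas 2.3.3, numpy 2.4.6 and matplotlib 3.10.9, and the fits were tested on simulated data, where 55 of 200 genes shifted by 1.5 on the log2 scale and 177 of 200 shifted by 3 were recovered with 1 and 14 wrong calls, and 0 genes were called without a shift. Groups came from the labels. The replicate numbers name no shared mouse or date and were not used for pairing. The labels name separate tumors, 1 per library.

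The members and the 57 gene lists were chosen with earlier results of these data known. Members that the files do not list were 3 T cell, 2 B cell, 2 interferon-stimulated and 1 salivary gland gene. Named were the 15 genes with the largest positive and the 15 with the largest negative difference among separated genes with an unadjusted p below 0.05, the 5 with the smallest p, up to 6 separated members and the 3 most abundant members of each list with those at 0 in all tumors, all members of 6 lists, the 43 genes of the study's own list, which were chosen on these tumors, and genes called in the interaction. Of the 465 genes so named, those described are a part, and 1 withheld gene is not reported here. Alternatives were another pseudocount (0.1), median-of-ratios scaling, no filter, a mean of at least 5 TPM, no trend, a block for the replicate number, all 12 tumors in 1 fit, no limit on the difference and leaving out each tumor in turn. List medians relative to genes of the same GC class were added after seeing the data. Single genes were not tested by permutation.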

Additional observations from a re-analysis of the deposited data

Results flagged for a closer look

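Bpifa2, a salivary gland protein, had an interaction of doxorubicin and anti-PD-1 with a limma adjusted p of 0.0909, because it was listed at 14.4, 21.3 and 53.7 TPM in the DOX/IgG1 tumors and at 0 in the other 9 tumors of the series. It passed the filter of 1 TPM in 3 tumors only through the group in which it was high. Over the alternative settings its adjusted p lay between 0.024 and 0.996. It was not tested between the 2 groups given anti-PD-1, where all 6 tumors were at 0. The salivary gland markers, a list that holds this gene, had a median difference of doxorubicin of 0.90 with IgG1 and -0.52 with anti-PD-1, and a median interaction of -0.98. The part of salivary gland tissue in this value was not tested.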

How the results depend on the processing

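In the main comparison 0 genes passed with every alternative except limma without a trend, which gave 3 (Ftl1-ps1, Mup16 and Tmsb15b1), and leaving out single tumors, which gave 0 to 4. Those were Gm26992 without anti-PD-1 replicate 1, Gm20390, Gm10226 and the 4 genes Col15a1, Hist1h2ac, Hist1h2an and Hist1h4k without DOX/anti-PD-1 replicates 1, 3 and 2, where 813 to 1365 genes had an unadjusted p below 0.05. Of these, the genes that the report does not describe were named after their values were seen. With the replicate block 0 genes passed (smallest adjusted p 0.553) in place of 0, and 0 in place of 1 for the interaction (0.276). Deviations of tumors with the same number correlated at 0.0512, 0.148 and -0.0613, and those of tumors with different numbers between -0.2069 and 0.1262. With 3 tumors in each group, these values cannot show whether the numbers pair the tumors.

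The interaction gave 0 genes with another pseudocount, 0 after scaling, 0 with a mean of at least 5 TPM, 3 without a filter, 3 without a trend and 0 to 1 without a tumor. The 3 genes were Bpifa2, Pagr1a and Smr3a in either case. The single gene was Bpifa2 without DOX/IgG1 replicate 1, and Hist1h2af, with a positive interaction, without DOX/anti-PD-1 replicate 3. Separated genes were 994 above and 1017 below after scaling, and 2092 to 2938 and 883 to 1475 with 1 tumor left out, where fewer tumors separate more often.

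Of 625 medians of the 57 lists under the alternatives, 593 moved by less than the spread between tumors. A pseudocount of 0.1 gave -0.067 for milk proteins, 0.97 for T cell markers, -0.080 for checkpoint genes, -0.27 for ErbB genes, -1.44 for keratinocyte and 1.05 for lymph node markers. Scaling gave 0.54 for fibroblast markers and -0.14 for proteasome subunits. Without a filter the median was 0.19 for B cell markers, 0.044 for Hedgehog genes and -0.43 for keratinocyte markers. At a mean of 5 TPM it was -0.67 for milk proteins, 1.07 for T cell markers and -0.070 for WNT genes, and B cell and lymph node markers had no value for lack of genes. Relative to the GC class it was -0.059 for WNT genes, -0.073 for Sox genes, -0.16 for proteasome subunits and -0.43 for heat shock genes, beside -0.02, 0.05, -0.12 and -0.34 relative to all genes, so a part of the move is the median of 0.11 taken away. With 1 tumor left out, medians ranged from -0.19 to 0.20 for milk proteins, 0.59 to 0.95 for basal, 0.62 to 0.82 for fibroblast, -0.16 to 0.44 for NK cell, 0.16 to 1.52 for B cell and 0.059 to 0.71 for dendritic cell markers, -0.10 to 0.21 for chemokine receptors, -0.094 to 0.14 for calcium genes, -0.070 to 0.11 for proteasome subunits and -0.84 to -0.31 for salivary markers. Other medians turned their sign within the spread between tumors. With the pseudocount these were MHC class II genes (-0.14) and skeletal muscle markers (-0.25), without a filter chemokines (-0.029), neutrophil (0.14) and muscle markers (-0.0056) and thyroid hormone genes (-0.015), and at a mean of 5 TPM MHC class II genes (-0.20) and neutrophil markers (0.28). The causes were not tested. The sign changed with scaling in 7 lists, with 1 tumor left out in 26 and in no alternative in 25.

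Of 1364 values of the 124 single genes under alternatives, 1363 kept their direction and their side of the limit. Col15a1 passed without DOX/anti-PD-1 replicate 2 (2.17, limma adjusted p = 0.0787).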
